A study of Mus musculus with 24 samples.

Results

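The troponin genes are the 8 genes Tnnt1, Tnnt2, Tnnt3, Tnni1, Tnni2, Tnni3, Tnnc1 and Tnnc2, chosen by name from the 20351 genes of the deposited table. All 8 were in the table, and 7 of them were among the 14411 genes with enough counts to be tested; Tnnt3 was not. They were followed in HL-1 cells, a beating line derived from mouse atrial cardiomyocytes, in 4 groups of 6 libraries. Control cells received an adenovirus with a scrambled short hairpin RNA, and knockdown cells received an adenovirus with a hairpin against MuRF1, in both cases at 30 infectious units per cell. At 48 h later, cells of each kind were either cyclically stretched by 15% at 1 Hz for 60 min or kept in parallel without stretch, and RNA was harvested directly afterwards. All groups therefore carried an adenovirus and had been moved to serum-free medium. Whether the stretch was uniaxial or biaxial is not settled here, because the protocol field and the characteristics differ. The model is a single immortalised line with a transient knockdown, and nothing in the labels says that replicates came from separate cultures, so p-values measure the spread between these libraries, which may be technical.

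Troponin is the calcium switch of the thin filament of striated muscle. Troponin C binds calcium, troponin I holds back the interaction of actin and myosin when calcium is low, and troponin T anchors the complex to tropomyosin. Each subunit has paralogs: Tnnt2 and Tnni3 encode the cardiac forms of troponin T and I, Tnnt1 and Tnni1 the slow skeletal forms, Tnnt3 and Tnni2 the fast skeletal forms, Tnnc1 the form of troponin C shared by heart and slow muscle, and Tnnc2 the fast form. The slow form Tnni1 is the troponin I of the fetal heart and gives way to Tnni3 around birth. MuRF1, the product of Trim63, is a muscle ubiquitin ligase for which troponin I has been described as a substrate at the protein level. The measurements here are of transcripts, not of protein.

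The genes lie largely in pairs. On GRCm38, Tnni1 (ENSMUSG00000026418) spans chr1:135779434-135810989 and Tnnt2 (ENSMUSG00000026414) chr1:135836354-135852260, both on the plus strand, 25364 bases apart. Tnnt1 (ENSMUSG00000064179) spans chr7:4504570-4516382 and Tnni3 (ENSMUSG00000035458) chr7:4518305-4524229, both on the minus strand, with 1922 bases between them. Tnni2 (ENSMUSG00000031097) at chr7:142441808-142444410 and Tnnt3 (ENSMUSG00000061723) at chr7:142498836-142516009 lie 54425 bases apart on the plus strand. Tnnc1 (ENSMUSG00000091898) at chr14:31208312-31211729 and Tnnc2 (ENSMUSG00000017300) at chr2:164777161-164779967 stand alone.

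RefSeq on GRCm38.p6 gave 8 promoter entries for 6 of the 8 members, with more than 1 start site for Tnnt2 and Tnni1. Among these genes, the 4 whose transcripts were at least 2-fold lower after knockdown are shown by the stretch just before a start site, for Tnnt2 and Tnni1 the first along the chromosome, because these members moved together. Each runs 5′ to 3′ on the strand of the gene. Capitals mark matches, on either strand, to the letters searched for 5 elements of muscle promoters: the GATA motif (AGATAA as well as AGATAG, besides TGATAA as well as TGATAG), the MEF2 core CTANNNNTA, the M-CAT element CATTCC that binds TEAD factors, the TATA box TATAAA, and the CArG box of serum response factor.
Tnnt2, chr1:135836084-135836333, plus strand: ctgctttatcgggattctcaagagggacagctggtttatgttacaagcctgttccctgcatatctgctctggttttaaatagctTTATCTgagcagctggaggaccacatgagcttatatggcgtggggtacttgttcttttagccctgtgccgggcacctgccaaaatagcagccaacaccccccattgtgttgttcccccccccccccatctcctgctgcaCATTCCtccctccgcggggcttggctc
Tnni1, chr1:135799171-135799401, plus strand: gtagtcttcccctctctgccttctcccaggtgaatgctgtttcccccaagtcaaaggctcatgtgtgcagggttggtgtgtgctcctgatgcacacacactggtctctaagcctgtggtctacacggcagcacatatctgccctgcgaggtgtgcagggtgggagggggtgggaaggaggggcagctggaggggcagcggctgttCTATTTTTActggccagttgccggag
Tnni3, chr7:4522529-4522778, minus strand: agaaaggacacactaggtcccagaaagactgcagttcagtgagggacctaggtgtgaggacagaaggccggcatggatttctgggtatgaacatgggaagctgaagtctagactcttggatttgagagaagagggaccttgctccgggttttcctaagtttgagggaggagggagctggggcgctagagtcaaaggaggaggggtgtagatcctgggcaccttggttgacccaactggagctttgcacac
Tnnc1, chr14:31208062-31208311, plus strand: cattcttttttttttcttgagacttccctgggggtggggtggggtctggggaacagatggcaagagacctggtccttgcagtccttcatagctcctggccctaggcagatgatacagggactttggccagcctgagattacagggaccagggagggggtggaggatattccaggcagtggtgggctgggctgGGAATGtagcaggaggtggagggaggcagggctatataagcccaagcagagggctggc
The Tnnt2 stretch held a GATA match 166 bases and an M-CAT match 27 bases before the start. The window of the other Tnnt2 start site, not printed, held neither of these and MEF2 core matches at 212 and 71 bases. The Tnnc1 stretch held an M-CAT match at 58 bases, and the Tnni1 stretch a MEF2 core match at 45 bases before its start. The printed Tnni1 stretch ends 19 bases short of that start, because annotated exon bases were left out. The start sites used here for Tnni1 and Tnni3 lie inside the gene spans given above. In the Tnni3 stretch none of the capitalised elements occurred within the window. Among 32851 RefSeq promoters with a window of 250 bases, 26.5% held the GATA letters, 19% the MEF2 core, 12.6% the M-CAT letters, 12.4% the TATA letters and 1.47% a CArG box. The E-box letters CANNTG, which are not capitalised, occurred in all 4 stretches, with 4 matches in Tnnt2, 4 in Tnni1, 2 in Tnnc1 and 1 in Tnni3, and in 66.2% of the promoters. None of the capitalised elements was in all 4 stretches, and a match here is a description of sequence, not of binding.

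The libraries held 23.6 to 54.8 M estimated counts. Trim63, the target of the hairpin, had 640 ± 68.1 CPM (counts per 1 M counts of the library, M for mega) in non-stretched control cells and 55.7 ± 1.17 CPM in non-stretched knockdown cells (SD, n = 6 each). It stood at 781 ± 81.7 and 68.5 ± 7.91 CPM in the stretched groups. The transcript was thus 91.3% lower without and 91.2% lower with stretch. By its level every library matched the hairpin of its label, with at least 536 CPM in controls and at most 83.5 CPM in knockdown libraries. The stretch part of the labels was not checked by library, and Trim63 overlapped between stretched and non-stretched controls. The library of stretched control replicate 5 stood apart: it held 23.6 M counts against at least 37.7 M in the other 23, and 1.45% of its counts were mitochondrial against 2.49% to 3.67%. Some of the comparisons that use it are also given without it. The library code of the labels also holds a letter, a or b, whose meaning is not stated and which divides each group into 3 and 3, and also a number shared by all 6 libraries of a group, so that whatever it marks and the group cannot be told apart.

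Of the atrial cardiomyocyte markers all 8 were in the table, and their summed level was 582 to 641 CPM in non-stretched controls, mostly Myl7, Actc1 and Ryr2. The defining atrial markers Nppa and Sln were near 0, at 0.456 and 0.0670 CPM. Of 4 ventricular markers, the sum was 1.15 to 1.49 CPM. The skeletal muscle regulators Myod1 and Myog never exceeded 2 counts in a library. Of the other listed regulators, Myf5 reached at most 3 counts, and Myf6 reached 14 in a stretched control library. The 10 skeletal markers summed to 6.95 to 8.65 CPM in non-stretched controls. Most of this was Mylpf, Actn3 and Ckm, with means of 3.61, 3.11 and 1.03 CPM.

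Per kilobase of transcript, the highest levels were those of the cardiac Tnnt2 and Tnni3 and the slow Tnni1. The fast Tnnc2 stood above the slow Tnnt1. In non-stretched controls Tnnt2 led at 1132 ± 71.0 CPM per kb, followed by Tnni3 at 168 ± 9.22, Tnni1 at 65.4 ± 3.06, Tnnc1 at 14.7 ± 0.272, Tnnc2 at 10.5 ± 0.580, Tnnt1 at 4.83 ± 0.781, Tnni2 at 0.509 ± 0.142 and Tnnt3 at 0.138 ± 0.0875 CPM per kb (SD, n = 6). No neighbours in this order overlapped over the 6 libraries. Lengths are the median of the annotated coding transcripts, and with the shortest transcript in its place Tnni1 stood at 104 CPM per kb, still below Tnni3. In non-stretched knockdown cells the order of the means was the same except that Tnnc2, at 6.60 ± 1.02 CPM per kb, stood above Tnnc1, at 5.92 ± 1.07, with overlapping libraries. Tnni2 at 0.125 ± 0.0556 and Tnnt3 at 0.113 ± 0.0275 CPM per kb overlapped there too. The cardiac troponin T transcript was far above both forms of troponin C in every group.

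After MuRF1 knockdown, transcripts of all 3 troponin subunits were lower. Without stretch, each of the 7 tested genes was lower in knockdown than in control cells at an edgeR adjusted p under 0.05, against 29.7% of all tested genes that fell. With stretch the same 7 fell, against 26.9% of all tested genes. Tnni2 passed the filter only through the control libraries, where it was high, so that its place in these counts is not evidence. The other 6 were above the filter's level in all 24 libraries. A fall of at least 2-fold was seen for Tnnt2, Tnni1, Tnni2, Tnni3 and Tnnc1, 5 of the 7, in both settings, against 3.11% of tested genes without and 2.42% with stretch. The median log2 fold change of the 7 was -1.31 without stretch and -1.16 with stretch, beside 0.01 and 0.00 over all tested genes.

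**Figure D1:**
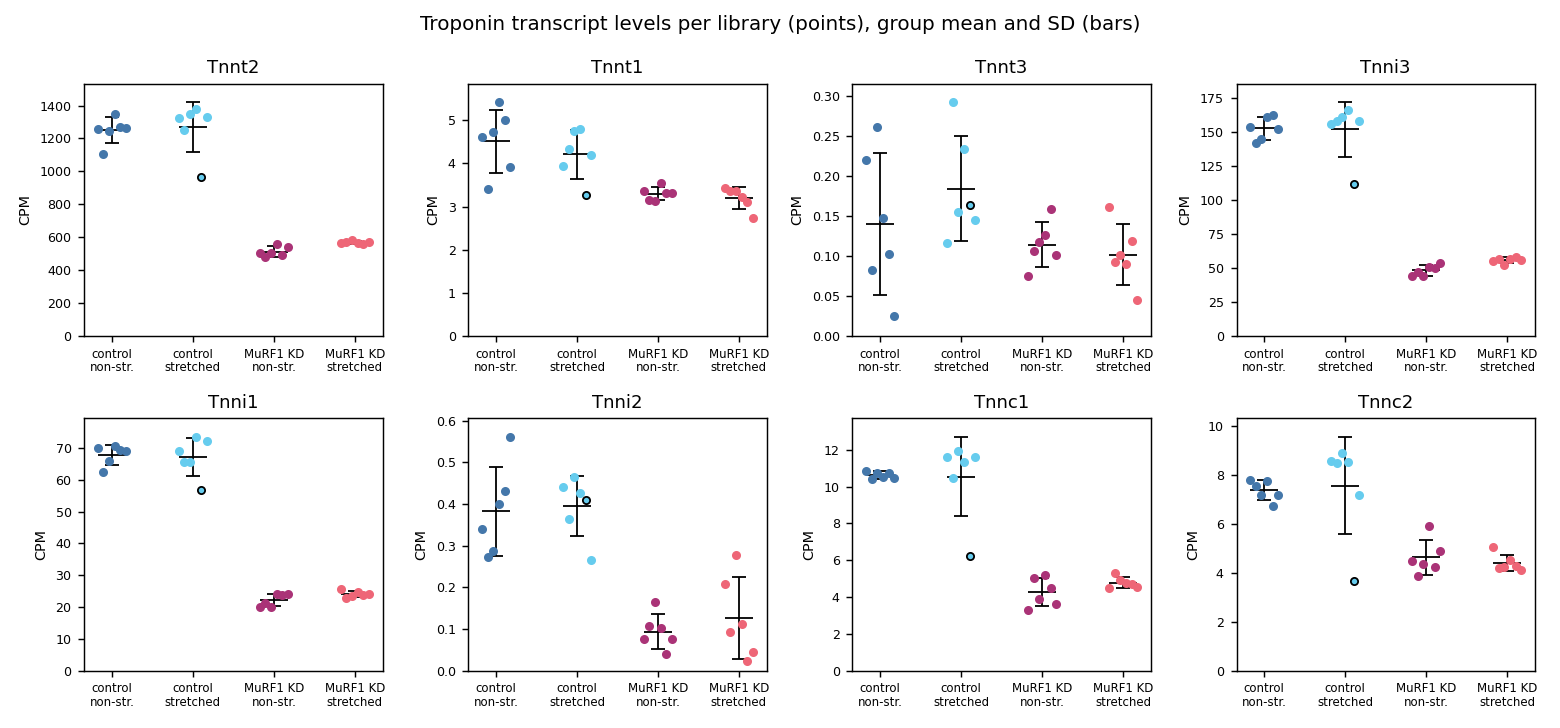
Levels of the 8 troponin transcripts in CPM (y axis, from 0) in the 4 groups (x axis); points are libraries, bars the group mean and SD (n = 6), and the point outlined in black is stretched control replicate 5. For Tnnt2, Tnni3, Tnni1 and Tnnc1 every knockdown library lies below every control library.

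Tnnt2, the cardiac troponin T, had a lowest, median and highest level of 1108, 1263 and 1349 CPM in non-stretched controls. The matching values in non-stretched knockdown cells were 480, 503 and 560 CPM. In stretched controls they were 969, 1329 and 1378 CPM, the lowest being replicate 5, and in stretched knockdown cells 559, 569 and 583 CPM. Knockdown and control did not overlap with or without stretch. The log2 fold change was -1.28 (SE 0.0609, edgeR adjusted p = 5.99e-16) without stretch and -1.16 (SE 0.0607, edgeR adjusted p = 7.39e-15) with stretch, a transcript level 59.0% and 55.1% lower.

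Tnnt1, the slow skeletal troponin T, changed least of the tested members. Its lowest, median and highest values were 3.42, 4.67 and 5.42 CPM in non-stretched controls and 3.13, 3.31 and 3.54 CPM in non-stretched knockdown cells, so the groups overlapped. In stretched cells the controls ran from 3.27 CPM, in replicate 5, through a median of 4.26 to 4.80, and the knockdown libraries from 2.74 through 3.29 to 3.43. It fell by 0.46 on the log2 scale (SE 0.0964, edgeR adjusted p = 0.000203) without stretch and by 0.41 (SE 0.0974, adjusted p = 0.000918) with stretch.

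Tnnt3, the fast skeletal troponin T, was barely present and was not tested, with 0.951 to 12 counts per library. It had 0.140 ± 0.0887 and 0.184 ± 0.0654 CPM in non-stretched and stretched controls, and 0.114 ± 0.0278 and 0.101 ± 0.0381 CPM in the knockdown groups (SD, n = 6). These ranges overlapped. With no filter on low counts the log2 fold change was -0.25 (SE 0.394) without stretch and -0.85 (SE 0.390, edgeR adjusted p = 0.0923) with stretch, so that a change was not detectable at this depth.

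Tnni3, the cardiac troponin I, had a lowest, median and highest level of 142, 153 and 163 CPM in non-stretched controls and 43.7, 48.6 and 53.3 CPM in the matching knockdown cells. In stretched cells the values were 112, 158 and 166 CPM in controls, the lowest again being replicate 5, and 51.8, 56.1 and 58.4 CPM in knockdown cells. The groups were far apart in both settings. The log2 fold change was -1.67 (SE 0.0697, edgeR adjusted p = 9.93e-17) without and -1.45 (SE 0.0690, adjusted p = 2.12e-15) with stretch.

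Tnni1, the slow and fetal troponin I, ran from 62.4 to 70.7 CPM with a median of 69.3 in non-stretched controls, and from 20.1 to 24.1 with a median of 22.6 in non-stretched knockdown cells. Stretched controls ran from 56.7, in replicate 5, to 73.5 CPM with a median of 67.5, and stretched knockdown cells from 23.0 to 25.8 CPM with a median of 24.1. It fell by 1.61 (SE 0.0558, edgeR adjusted p = 4.20e-19) and 1.47 (SE 0.0555, adjusted p = 4.35e-18) on the log2 scale without and with stretch, with no overlap between knockdown and control.

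Tnni2, the fast troponin I, was at 10 to 22.8 counts per control library and at 1 to 11 per knockdown library. It had 0.382 ± 0.107 CPM in non-stretched controls and 0.0936 ± 0.0417 in non-stretched knockdown cells, and 0.396 ± 0.0718 and 0.126 ± 0.0975 CPM in the stretched groups. The log2 fold change was -2.01 (SE 0.356, edgeR adjusted p = 2.23e-05) and -1.66 (SE 0.339, adjusted p = 0.000166). Groups did not overlap without stretch and overlapped with stretch, and at these counts the size of the change is less certain than for Tnni1 and Tnni3. Tnni2 passed the filter only through the control libraries, so neither its adjusted p nor the lack of overlap is evidence.

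Tnnc1, which encodes the troponin C of heart and slow muscle, ran from 10.4 to 10.9 CPM with a median of 10.6 in non-stretched controls and from 3.31 to 5.21 with a median of 4.21 in the knockdown cells. Stretched controls ran from 6.25, in replicate 5, to 11.9 CPM with a median of 11.5, and stretched knockdown cells from 4.49 to 5.30 with a median of 4.73. The log2 fold change was -1.31 (SE 0.112, edgeR adjusted p = 9.46e-11) without and -1.15 (SE 0.111, adjusted p = 1.26e-09) with stretch. Even replicate 5 lay above every knockdown library.

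Tnnc2, the fast troponin C, fell less. It ran from 6.72 to 7.79 CPM with a median of 7.35 in non-stretched controls and from 3.86 to 5.92 with a median of 4.42 in knockdown cells, without overlap. Stretched controls ran from 3.68, in replicate 5, to 8.90 CPM with a median of 8.49, and stretched knockdown cells from 4.11 to 5.04 with a median of 4.26. Replicate 5 was thus below all stretched knockdown libraries, and it alone made those groups overlap. The log2 fold change was -0.68 (SE 0.130, edgeR adjusted p = 7.19e-05) without and -0.80 (SE 0.130, adjusted p = 9.26e-06) with stretch, and -0.92 (adjusted p = 7.89e-11) with stretch when replicate 5 was left out. In the 12 libraries of code letter b alone, the change without stretch was -0.53 with an adjusted p of 0.0713.

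Counted over the 7 tested genes, control and knockdown did not overlap for 6 without stretch (all but Tnnt1), where 21.5% of tested genes had every knockdown library lower. Tnni2 is among these 6, and its place there is not evidence because it passed the filter only through the control libraries. With stretch the groups did not overlap for 4 (Tnnt2, Tnni3, Tnni1 and Tnnc1), against 17.3%. For Tnnt1 and Tnnc2 only stretched control replicate 5 lay within or below the range of the stretched knockdown libraries. The other 5 stretched controls started at 3.95 and 7.17 CPM, above knockdown maxima of 3.43 and 5.04 CPM. The share of all tested genes without that library was not computed. Without that library the knockdown changes with stretch were -1.22 for Tnnt2, -1.52 for Tnni3 and Tnni1, -1.25 for Tnnc1 and -0.46 for Tnnt1.

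**Figure D2:**
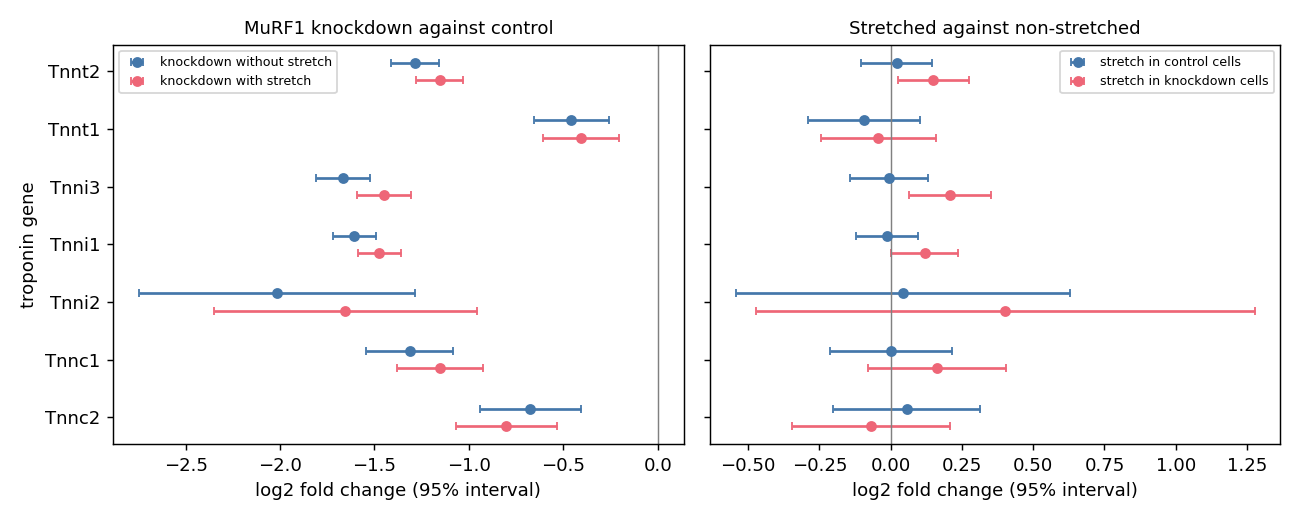
Log2 fold changes (x axis) with 95% intervals for the 7 tested troponin genes (y axis), for knockdown against control (left panel) and stretched against non-stretched (right panel); colours are the comparisons given in each legend. All knockdown intervals lie below 0, from -2.01 for Tnni2 to -0.46 for Tnnt1 without stretch. Tnni2 passed the filter only through the control libraries, so its fall is not evidence. The stretch intervals in control cells all include 0.

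Because the transcripts fell by different amounts, their proportions within a library shifted, as ratios of estimated counts show. Tnni3 to Tnni1, the cardiac to slow troponin I, overlapped between the groups: 2.25 ± 0.0584 in non-stretched controls, 2.26 ± 0.173 in stretched controls, 2.16 ± 0.0484 in non-stretched knockdown cells and 2.30 ± 0.130 in stretched knockdown cells. Tnnt2 to Tnnc1 likewise had means of 118, 123, 124 and 119. The ratio of Tnnt2 to Tnni3 was 7.80 to 8.66 in all control libraries and 9.57 to 11.5 in all knockdown libraries, without overlap. Cardiac troponin I was lower relative to cardiac troponin T in every knockdown library.

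Both ratios to the slow troponin T also separated control from knockdown libraries. Tnni3 to Tnnt1, neighbours on chromosome 7, was 29.8 to 41.6 in controls and 13.0 to 20.4 in knockdown libraries. Tnnt2 to Tnnt1 was 249 to 337 and 148 to 209. Tnnc1 to Tnnc2 was 1.35 to 1.60 in non-stretched controls and 0.734 to 1.30 in the matching knockdown cells, but overlapped with stretch, at 1.24 to 1.70 and 0.889 to 1.27. These ratios are descriptions of the same counts as the fold changes above and carry no test of their own.

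**Figure D3:**
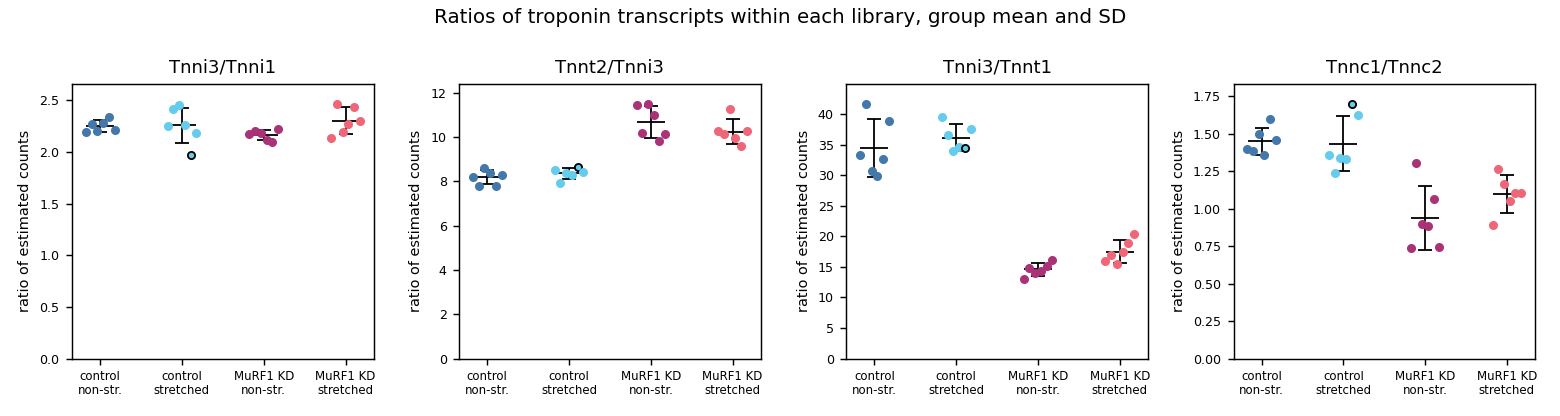
Ratios of estimated counts within each library (y axis, from 0) for 4 pairs of troponin genes in the 4 groups (x axis); points are libraries, bars the mean and SD (n = 6), and the black outline marks stretched control replicate 5. Tnni3/Tnni1 overlaps between all groups, near 2.25, while Tnnt2/Tnni3 and Tnni3/Tnnt1 separate knockdown from control.

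After 60 min of stretch, troponin transcripts of control cells did not pass the test in either direction. None of the 7 was called by edgeR, against 5.95% of tested genes, and none had an unadjusted p under 0.05; DESeq2 and limma-voom also called 0. Values ranged from -0.09 for Tnnt1 to 0.06 for Tnnc2 on the log2 scale. The 95% interval was -0.10 to 0.14 for Tnnt2, -0.14 to 0.13 for Tnni3 and -0.12 to 0.09 for Tnni1, and wider for Tnnc2, at -0.20 to 0.31. Leaving out replicate 5 gave 0.09 for Tnnt2, 0.06 for Tnni3, 0.10 for Tnnc1 and 0.18 for Tnnc2, and again called 0 of 7, against 14% of tested genes. In that fit the 95% intervals of Tnnt2 (0.01 to 0.17) and Tnnc2 (0.02 to 0.34) excluded 0, with edgeR adjusted p of 0.136 and 0.133.

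In knockdown cells edgeR also called 0 of 7 for stretch, against 8.93% of tested genes, but 3 had an unadjusted p under 0.05. These were Tnni3 at 0.21 (SE 0.0699, edgeR adjusted p = 0.0624), Tnnt2 at 0.15 (SE 0.0601, adjusted p = 0.128) and Tnni1 at 0.12 (SE 0.0574, adjusted p = 0.215) on the log2 scale. Stretched control replicate 5, which is in neither knockdown group, enters this contrast only through what all groups share in the fit. Without it, Tnni3 at 0.21 (SE 0.0431, adjusted p = 0.00162) and Tnnt2 at 0.15 (SE 0.0370, adjusted p = 0.00723) passed, against 13.3% of tested genes, and Tnni1 did not (adjusted p = 0.102). With all libraries kept, Tnni3 alone was called by DESeq2 (adjusted p = 0.0258) and by edgeR with RLE size factors (adjusted p = 0.04998), and limma-voom called 0. A fit of the 2 knockdown groups by themselves called Tnni3 and Tnnt2.

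Within the letters of the library code, the stretch values of the knockdown cells differed in size. For Tnni3 they were 0.28 among the letter a libraries (adjusted p = 0.000352) and 0.14 among the letter b libraries (adjusted p = 0.631), for Tnnt2 0.21 (adjusted p = 0.0121) and 0.09 (adjusted p = 0.775), and for Tnni1 0.22 (adjusted p = 0.0174) and 0.02 (adjusted p = 0.950), from 3 libraries a group. In non-stretched knockdown cells the letter b libraries lay above the letter a libraries for Tnni3, at 50.1 to 53.3 against 43.7 to 47.1 CPM, and for Tnni1, at 23.9 to 24.1 against 20.1 to 21.4 CPM. The part of the letter in the stretch values was not tested.

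**Figure D4:**
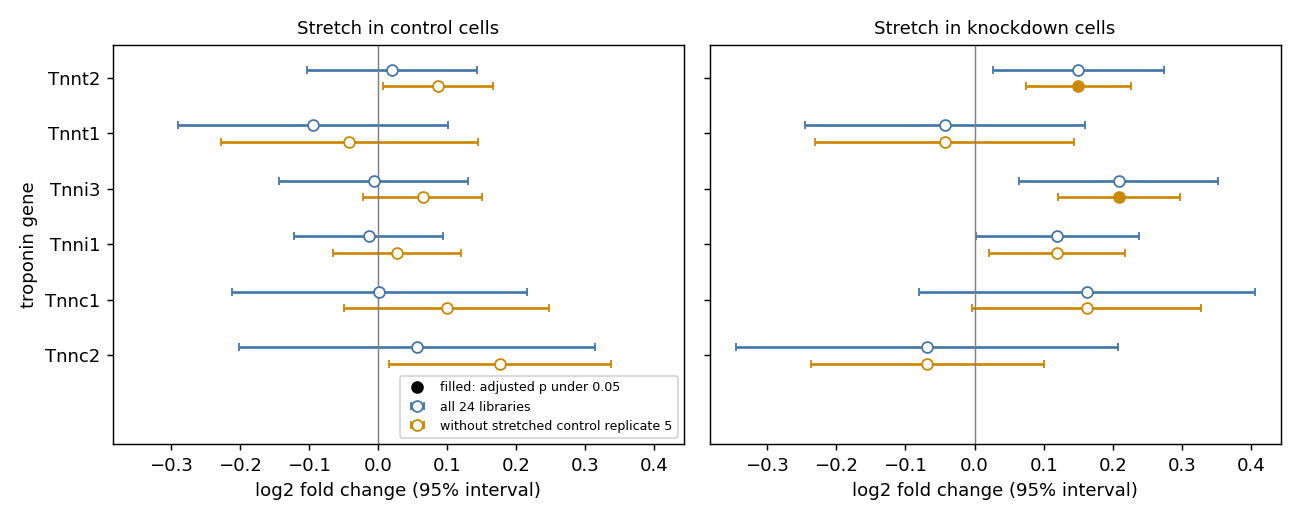
Log2 fold changes after stretch (x axis) with 95% intervals for 6 troponin genes (y axis) in control cells (left) and knockdown cells (right), from all 24 libraries (blue) and without stretched control replicate 5 (orange); filled points have an edgeR adjusted p under 0.05. Tnnt2 at 0.15 and Tnni3 at 0.21 in knockdown cells are filled only without that library.

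The difference between the stretch effects in knockdown and control cells was tested as an interaction. None of the 7 genes passed, against 0.0208% of tested genes, and 1 had an unadjusted p under 0.05. This was Tnni3, at 0.21 on the log2 scale (95% interval 0.02 to 0.41, edgeR adjusted p = 0.493). DESeq2 and limma-voom called 0 of 7 as well. Without stretched control replicate 5 again 0 of 7 passed, against 0.753% of tested genes. In that fit Tnni3 was at 0.14 (95% interval 0.02 to 0.27, edgeR adjusted p = 0.217) and Tnnc2 at -0.25 (-0.48 to -0.01, adjusted p = 0.262), where Tnnc2 had been at -0.13. Tnnt2 went from 0.13 to 0.06 and Tnnc1 from 0.16 to 0.06. The response of troponin transcripts to stretch was therefore not shown to differ between knockdown and control cells.

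Genes listed as partners of troponin on the thin filament mostly fell too; the list includes Mybpc3, whose protein sits on the thick filament and reaches the thin one. Of 14 listed partners, 11 fell and 1 rose after knockdown without stretch, and 12 fell and 2 rose with stretch. Over all tested genes, 29.7% fell and 28% rose without stretch, and 26.9% and 25.1% with stretch. The median log2 fold change was -0.40 and -0.35, smaller than the median of the troponins. Actc1, cardiac actin, fell by 1.32 (SE 0.0710) and 1.07 on the log2 scale, from 94.8 ± 13.8 to 37.9 ± 2.33 CPM without stretch. Tmod1, which caps the pointed end of the filament, fell by 0.79 and 0.75, and Nebl, a nebulin relative of cardiac muscle, by 0.64 and 0.58. Tpm2, a tropomyosin, fell by 0.36 without stretch, and Mybpc3, cardiac myosin-binding protein C, by 0.70 with stretch. Neb, nebulin, rose by 0.22 and 0.26, and Tmod4 by 0.38 with stretch. Lmod3, which is among those counted as falling, reached the filter's level in 6 control libraries and 1 knockdown library, so it passed only through the controls. Without replicate 5 the partners counted 12 falling and 1 rising in each setting, where 61.4% and 55.4% of tested genes passed in either direction.

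Stretch moved some of these partners although it moved no troponin past the test. In control cells 3 of 14 rose and 0 fell: Actc1 by 0.48 (SE 0.0680), Tpm1, a tropomyosin, by 0.14 and Lmod1, a leiomodin that nucleates actin, by 0.32. In knockdown cells 3 rose and 0 fell, namely Actc1 by 0.73, Lmod1 by 0.37 and Acta1, skeletal actin, by 0.39. Over all tested genes, 2.55% rose and 3.39% fell in control cells, and 5.32% and 3.61% in knockdown cells. Without replicate 5 the counts of rising partners were 6 and 5, where 14% and 13.3% of tested genes passed in either direction.

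Most thick filament genes also fell after knockdown. Of 8 listed, 6 were tested, and 5 fell and 1 rose in both settings, with median log2 fold changes of -0.85 and -0.81, where 29.7% of tested genes fell and 28% rose without stretch, and 26.9% and 25.1% with it. Myl7, the atrial myosin light chain, fell by 1.68 (SE 0.0729), and Mylk3, the kinase of cardiac myosin light chain, by 0.99 without stretch. Myl2, the ventricular light chain, was the member that rose, by 2.02 (SE 0.387, edgeR adjusted p = 6.28e-05), at only 0.0645 ± 0.0348 CPM in non-stretched controls and 0.275 ± 0.0854 in the knockdown cells. It reached the filter's level in 0 of 12 control and 7 of 12 knockdown libraries, so it passed only through the group where it was high, and its rise is not evidence. After stretch 0 of the 6 passed in control cells and 2 rose in knockdown cells, where 2.55% and 5.32% of tested genes rose. The 2 were Myh6, the alpha myosin heavy chain, by 0.40 and Ttn, titin, by 0.20. Without replicate 5 the count in knockdown cells was 3, where 13.3% of tested genes passed in either direction.

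**Figure D5:**
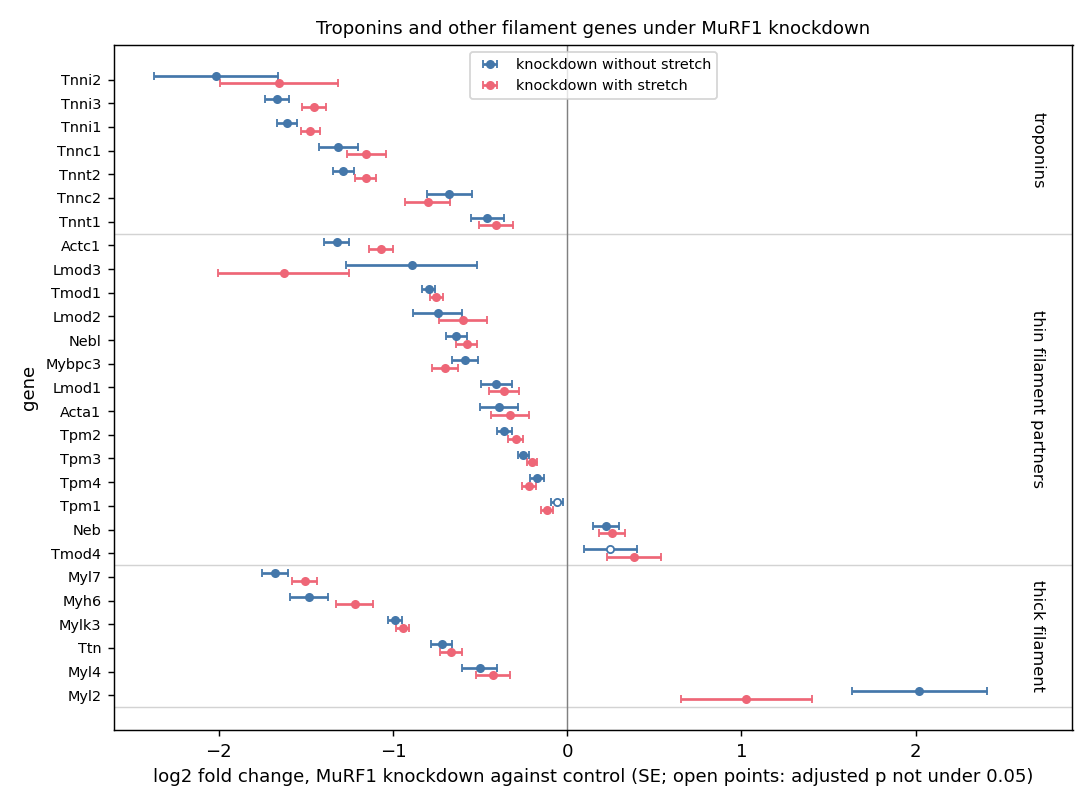
Log2 fold changes after MuRF1 knockdown (x axis, bars are SE) for troponins, thin filament partners and thick filament genes (y axis), without stretch (blue) and with stretch (red); open points did not pass the edgeR test. Most points lie below 0, with Myl2 at 2.02 the farthest above it. Myl2, Tnni2 and Lmod3 passed the filter only through the groups where they were high, so their points are not evidence.

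Most transcription factors known to act on troponin promoters also fell. Of 14 listed, 11 fell and 1 rose in both settings, with medians of -0.48 and -0.42. Among tested genes 29.7% and 26.9% fell, and 28% and 25.1% rose. Myocd, the coactivator of serum response factor, fell by 0.83 without stretch, from 79.0 ± 1.95 to 44.5 ± 2.04 CPM, and Hand2, a heart-forming bHLH factor, by 0.60. Nkx2-5, a homeobox factor of the early heart, rose by 0.25. Stretch raised Srf, serum response factor, by 0.37 in control and in knockdown cells, and lowered Gata5 by 0.34 and 0.23. It lowered Hand2 by 0.13 in control cells and raised Gata6 by 0.21 in knockdown cells. In all, 1 factor rose and 2 fell in control cells, and 4 rose and 1 fell in knockdown cells, where 5.95% and 8.93% of tested genes passed in either direction. Without replicate 5 the counts in control cells were 2 and 4, where 14% of tested genes passed in either direction.

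Most splicing factors of troponin T fell as well. Of 9 splicing factors, 7 fell and 1 rose without stretch, and 7 fell and 0 rose with stretch. Their medians were -0.24 and -0.23, where 29.7% and 26.9% of tested genes fell and 28% and 25.1% rose. Rbm24 fell by 1.07 without and 0.96 with stretch, and Rbm20, the splicing regulator of titin, by 0.71 and 0.58, while Celf2 rose by 0.15 without stretch. After stretch 0 of the 9 passed in control cells, and Rbm24 rose by 0.22 in knockdown cells, where 5.95% and 8.93% of tested genes passed in either direction. Without replicate 5 the rising counts were 1 and 2, where 14% and 13.3% of tested genes passed in either direction. The estimated counts are per gene, so the isoforms of troponin T were not compared.

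Of 18 listed kinases and phosphatases of troponin I or T, 17 were tested, and 5 rose and 6 fell in both settings, with medians of 0.01 and -0.04. With all 24 libraries these shares were close to those of all tested genes. Of those, 28% rose and 29.7% fell without stretch, and 25.1% and 26.9% with it. Leaving out replicate 5 gave 5 rising and 8 falling without stretch, and 5 and 7 with stretch. In that fit 61.4% and 55.4% of tested genes passed in either direction. Prkca, protein kinase C alpha, fell by 0.63 and 0.51, and Prkcd by 0.35 and 0.25. Pak3, a p21-activated kinase, rose by 1.10 without stretch, Prkd1, protein kinase D1, by 0.61 and 0.49, and Map3k5 by 0.61 with stretch. After stretch 0 of the 17 passed in control cells, and Prkca rose by 0.16 in knockdown cells, where 5.95% and 8.93% of tested genes passed in either direction.

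The levels of other marker lists moved beside the troponins. The sum of the 8 atrial markers was 230 to 253 CPM in non-stretched knockdown cells, below the 582 to 641 of controls. The 6 fibroblast markers, led by Col1a1, summed to 56.7 to 69.9 CPM against 154 to 162, and the 6 smooth muscle markers, led by Acta2, which is also expressed in immature cardiomyocytes, to 1826 to 1977 against 2642 to 2875. The 4 ventricular markers summed to 3.88 to 4.78 CPM against 1.15 to 1.49. Most of this was Hey2, with means of 4.10 against 1.22 CPM. Myl2 was at 0.275 against 0.0645, Myl3 at 0.0194 against 0.0619 and Irx4 at 0.00421 against 0 CPM. The 10 skeletal markers, at 7.34 to 8.42 against 6.95 to 8.65 CPM, the 5 endothelial markers, at 7.11 to 9.07 against 9.21 to 10.1 CPM, and the 4 macrophage markers in the table, at 2.10 to 2.75 against 1.56 to 1.93 CPM, were low in both. The part of these lists in the troponin result was not tested, and in bulk RNA fewer cells of a type and less transcript per cell cannot be told apart.

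Genes most like the 3 highest troponins across all 24 libraries were found by Pearson correlation of log2 CPM, which here mainly reflects the separation of knockdown and control libraries. For Tnnt2 they were Gyg (r = 0.996), Myl7 (0.996) and Vim (0.995); for Tnni3, Myl7 (0.997), Vim (0.997) and Mlana (0.997); for Tnni1, Cbr2, Atp5a1 and Gpx3 (each 0.996). Within groups, after removing the group means, these correlations were 0.683 to 0.927. The within-group values include stretched control replicate 5, where each of the 3 troponins was lowest in its group. They were not computed without that library. All points share the library depth and scaling.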

How the data were processed

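The values are estimated counts per gene as deposited by the authors, made with kallisto 0.44.0 on GRCm38.p6, with DESeq2 1.18.1 and R 3.4.4, per the submitters' processing notes. Of these estimated counts 36.6% were whole (tolerance 1e-09); they were rounded to whole numbers here. The authors' other table gives a normalized signal, whose ratio to the counts varies between genes (median CV 3.61% over 11255 genes); it served as an alternative, as log2(value + 1) in limma. How transcripts were combined per gene is not given in the sources used here.

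Counts from 24 libraries were fitted with edgeR 4.0.16 in R 4.3.3 (TMM, filterByExpr with a minimum count of 10 and total of 15, robust quasi-likelihood, 1 coefficient per group, 20 residual degrees of freedom), with Benjamini-Hochberg adjustment over 14411 genes and a threshold of 0.05. CPM use TMM-scaled library sizes, SE is the absolute log2 fold change divided by the square root of F, and intervals are 95%. The script was tested on simulated data. Alternatives were RLE size factors, no filter, DESeq2 1.42.0, limma-voom (limma 3.58.1), only the groups compared, blocks for replicate number or code letter, and each library left out; fits without both outlying libraries and within a code letter were added after seeing the data. Of 60 replicate pairs none were identical.

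Named genes were all members, Trim63, up to 4 thin filament partners per direction and comparison and up to 2 genes of each other list, by smallest adjusted p, and the 3 genes most correlated with each of the 3 highest troponins. Members and lists were chosen with earlier results of these data known.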

Additional observations from a re-analysis of the deposited data

Results flagged for a closer look

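In stretched control replicate 5, 4 troponin transcripts lay far below the other 5 libraries of the group. Tnnt2 was at 969 CPM, with the nearest library at 1254 CPM. Tnni3 was at 112 CPM beside 156, Tnnc1 at 6.25 beside 10.5, and Tnnc2 at 3.68 beside 7.17 CPM. Below the mean of the other 5, these values were lower by 27.0% for Tnnt2, 30.1% for Tnni3, 45.1% for Tnnc1 and 55.8% for Tnnc2. Tnni1 and Tnnt1 were also the lowest of their group there, 18.1% and 25.7% below that mean, while Tnni2 and Tnnt3 were not. Each of 32 sets of 6 libraries (8 genes in 4 groups) was checked for a library far from the rest, and chance flags about 1 in 20. All 4 flagged values came from this library, which held 23.6 M counts and 1.45% mitochondrial counts; the part of depth or RNA quality was not tested.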

How the results depend on the processing

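The 14 single-gene knockdown results were recomputed under 490 alternatives in all: 489 kept direction and call, 0 reversed, and Tnnc2 without stretch lost its call among code letter b libraries. These counts include Tnni2, whose part in them is not evidence because it passed the filter only through the control libraries. For stretch in knockdown cells the count of troponin genes called, 0, became 1 with RLE size factors or DESeq2, 2 with only the groups compared or without both outlying libraries (stretched control replicate 5 and non-stretched knockdown replicate 4), 3 among letter a libraries, and 0 to 2 with a library left out; 2 came without stretched control replicate 5 and 1 without non-stretched knockdown replicate 6. Stretch values near 0 changed sign. In control cells, Tnni3 was 0.0082 with no filter, 0.0039 with only the groups compared, 0.056 without both outlying libraries and 0.095 among letter a; Tnni1 was 0.00068 with no filter and 0.019 without both; Tnnc1 was -0.0039 with DESeq2, -0.048 in the authors' table and -0.096 among letter b; Tnnc2 was -0.024 in that table and -0.12 among letter b; Tnnt2 was -0.080 and Tnni2 -0.33 among letter b, and Tnnt1 0.0094 among letter a. In knockdown cells, Tnnc2 was 0.0097 without both and 0.083 among letter a, Tnnt1 0.070 among letter a and Tnni2 -0.20 among letter b. With each library left out, control stretch ran from -0.012 to 0.087 for Tnnt2, -0.034 to 0.065 for Tnni3, -0.042 to 0.028 for Tnni1, -0.030 to 0.18 for Tnni2 and -0.034 to 0.10 for Tnnc1, knockdown stretch from -0.12 to 0.013 for Tnnc2, and the Tnnt1 interaction from -0.0081 to 0.12. The cause was not tested.

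With the replicate block, Tnnc1 in stretched controls was -0.0088, and the troponin counts were as without it. Deviations of same-numbered libraries from their group means correlated at r -0.064 to 0.15, with 3 of 36 pairs above 0.1. Among libraries of other groups, 8 of 24 libraries correlated best with a library of their own number. The count that chance would give was not computed. The number of all genes called also moved. For stretch in control cells 857 became 558 in the authors' table, 377 with only the groups compared, 568 without stretched control replicate 1, 2023 without replicate 5, 2933 without both outlying libraries, 3423 among letter a and 32 among letter b. For stretch in knockdown cells 1287 became 856 without stretched knockdown replicate 4, 2216 without both, 831 among letter a and 152 among letter b. The interaction count of 3 ranged from 0 to 559 and was 126 with DESeq2. The interaction uses all groups, so it was not fitted to only the groups compared. Counts of 1 to 12 per library limit Tnni2 in knockdown cells and Tnnt3.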
